A study of Bos taurus with 14 samples.

Results

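BMP4 (ENSBTAG00000003835), BMP7 (ENSBTAG00000015362) and TGFB3 (ENSBTAG00000012004) are 3 genes for secreted ligands of the TGF-beta superfamily, among 27607 genes counted in the liver of newborn calves. They were taken by identifier from the count table, and they were chosen because earlier results of these calves showed BMP7 higher and BMP4 and TGFB3 lower in 1 of the diet groups. The values of that comparison are therefore given as a description without a test. All 3 were among the 13307 genes that passed the filter on low counts in 12 calves, and each was also kept when all 14 calves were used.

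The comparison asked whether vitamins and minerals given to the dam before breeding and through gestation left a mark on the liver transcriptome of the calf. RNA from the whole liver tissue of 14 female calves was sequenced, 7 born from control dams (CON) and 7 from supplemented dams (VTM). Both groups of dams were crossbred Angus-based heifers, bred to a single bull with female-selected semen and fed the same basal diet, and the VTM dams also received 113 g per day of a vitamin and mineral premix from 60 days before breeding until calving. The calves received colostrum replacer, and tissue was taken at 30 h after birth according to the sample labels, while the methods count 30 h from colostrum. Each library came from 1 calf, no animals were pooled, and all calves share a sire, so that the groups stand for offspring of that bull. CON calf 19 and VTM calf 10 were left out of the analysis by the study for a low share of uniquely aligned reads, and values are given for the 12 remaining calves (6 per group) first and then with these 2 calves.

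Bone morphogenetic proteins and TGF-betas are secreted dimers that bind paired serine/threonine kinase receptors, which phosphorylate SMAD proteins that then regulate genes in the nucleus. In the liver, BMP signals from non-parenchymal cells act on hepatocytes to induce hepcidin, the hormone that limits iron release into the blood, and BMP4 takes part in liver bud formation in the embryo. TGF-beta is stored in the matrix in a latent form and, once released, induces collagen genes in stellate cells and fibroblasts.

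Total counts were 14989388 to 20125409 per calf in the 12 libraries and as low as 13382264 with all 14, so that 1 read was worth 0.0487 to 0.0808 CPM, the unit of counts scaled to library size. The hepatocyte markers that could be named, TTR and AHSG, summed to 5804 to 16262 CPM in these 12, so defining genes of liver parenchyma were present in each. VTM calf 40 had the most genes at 0 counts, 15395, followed by CON calf 31 with 13397, CON calf 19 with 13079 and CON calf 25 with 12497, and the other 10 libraries had 10941 to 11439. CON calf 31 also had the lowest TMM factor, 0.698. Counts come from bulk tissue, in which fewer cells of a type and less RNA per cell cannot be told apart.

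BMP4 was counted 153 times in CON calf 1, 289 in calf 7, 134 in calf 13, 249 in calf 25, 166 in calf 31 and 175 in calf 37. In the VTM group it was counted 131 times in calf 4, 145 in calf 16, 165 in calf 22, 227 in calf 28, 155 in calf 34 and 114 in calf 40. On the CPM scale, CON calves ranged from 7.89 (calf 13) through a median of 11.5 to 19.4 (calf 25), and VTM calves from 6.81 (calf 4) through 8.47 to 11.1 (calf 28). CON calves 7, 25 and 31 were above every VTM calf, while CON calves 1, 13 and 37 lay inside the VTM range, so the groups overlapped. All 6 VTM calves were below the CON median, and 2 of them, calves 4 and 40, were below every CON calf. The mean was 12.3 ± 4.45 CPM in CON and 8.37 ± 1.55 CPM in VTM (SD, n = 6 per group). The fitted log2 fold change, VTM relative to CON here and throughout, was -0.56 ± 0.24 (standard error, as for every fold change that follows), a level in CON 1.48-fold that in VTM. CON calf 19, with 177 counts (11.5 CPM), and VTM calf 10, with 109 counts (8.13 CPM), each lay inside the range of its own group. With them the log2 fold change was -0.55 ± 0.21.

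BMP7 had the lowest mean count of the 3 ligands over the 12 calves, 29.9 reads. It was counted 15 times in CON calf 1, 10 in calf 7, 29 in calf 13, 8 in calf 25, 11 in calf 31 and 17 in calf 37. In the VTM group it was counted 27 times in calf 4, 63 in calf 16, 66 in calf 22, 51 in calf 28, 22 in calf 34 and 40 in calf 40. These are small numbers: the exact Poisson 95% interval of the 8 counts in CON calf 25 ran from 3.45 to 15.8, and that of the 66 in VTM calf 22 from 51.0 to 84.0. CON calves ranged from 0.519 (calf 7) through a median of 0.867 to 1.71 CPM (calf 13), and VTM calves from 1.199 (calf 34) through 2.45 to 3.72 CPM (calf 16). VTM calves 16, 22, 28 and 40 were above every CON calf, and the other 2 VTM calves were below CON calf 13 alone. The mean was 0.922 ± 0.419 CPM in CON and 2.44 ± 1.02 CPM in VTM (SD, n = 6 per group), and the log2 fold change was 1.39 ± 0.44, or 2.63-fold.

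The 2 calves left out by the study changed BMP7 more than they changed BMP4. CON calf 19 had 68 BMP7 counts (4.40 CPM), the highest of all 14 calves on both scales. VTM calf 10, with 39 counts (2.91 CPM), lay inside the VTM range. With both calves the CON mean was 1.42 ± 1.37 CPM and the VTM mean 2.50 ± 0.944 CPM (SD, n = 7 per group), and the log2 fold change was 0.81 ± 0.49. All 7 VTM calves then remained above the CON median of 0.889 CPM, but none was above every CON calf. Within the 12 calves no single animal had such weight, since leaving out each in turn gave log2 fold changes from 1.23 (without VTM calf 16) to 1.67 (without CON calf 13).

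TGFB3, one of the TGF-beta isoforms, was counted 32 times in CON calf 1, 136 in calf 7, 79 in calf 13, 56 in calf 25, 60 in calf 31 and 77 in calf 37. In the VTM group it was counted 36 times in calf 4, 54 in calf 16, 30 in calf 22, 77 in calf 28, 28 in calf 34 and 0 in calf 40. The 0 in VTM calf 40 allows up to 3 counts, or 0.181 CPM, as a 1-sided limit at the depth of that library, and the 2-sided exact Poisson 95% interval drawn in the plot of the ligands by calf reaches 3.69 counts or 0.223 CPM. CON calves ranged from 2.02 (calf 1) through a median of 4.51 to 7.05 CPM (calf 7), and VTM calves from 0 (calf 40) through 1.71 to 3.75 CPM (calf 28). CON calf 1 was the only CON calf inside the VTM range, and VTM calves 4, 22, 34 and 40 were below every CON calf. The mean was 4.46 ± 1.63 CPM in CON and 1.98 ± 1.34 CPM in VTM (SD, n = 6 per group).

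For TGFB3 the log2 fold change was -1.17 ± 0.63, the least precise of the 3 ligands. Without VTM calf 40 it was -0.91 ± 0.35, with a VTM mean of 2.38 ± 1.03 CPM (SD, n = 5). CON calf 19, with 24 counts (1.55 CPM), was lower than all other CON calves, and VTM calf 10, with 34 counts (2.54 CPM), was inside its group. With both, the log2 fold change was -0.97 ± 0.58, and 3 instead of 4 VTM calves were below every CON calf.

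The 0 of TGFB3 in VTM calf 40 was shared by many genes of like abundance. Of 1763 tested genes whose mean count in the other calves was within 1.5-fold of that of TGFB3 (60.5 counts), 427 or 24.2% had 0 counts in VTM calf 40. The next highest share was 4.65%, in CON calf 31. BMP4 and BMP7 had 114 and 40 reads in VTM calf 40. The part of this library in the TGFB3 difference is measured by the value without it.

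**Figure D1:**
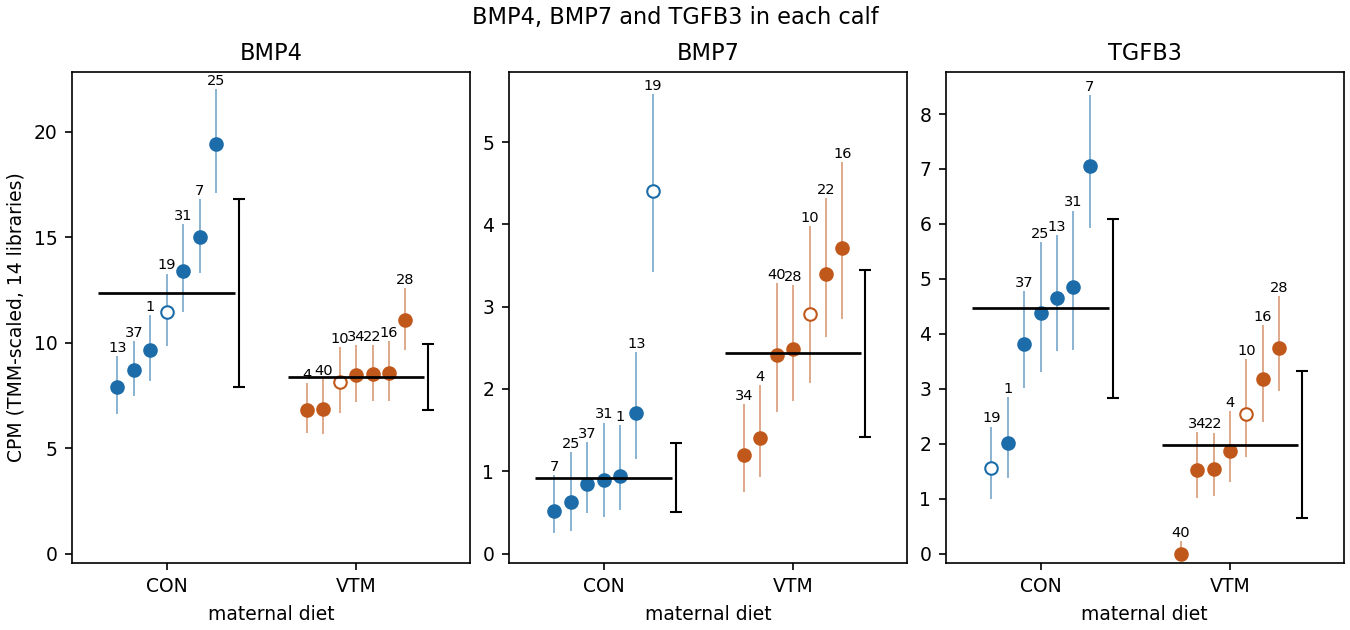
Level of each ligand in each calf (vertical axis, CPM scaled by TMM over 14 libraries, different scale per panel), CON in blue and VTM in orange, with calf numbers above the points. Thin bars are exact Poisson 95% intervals of the count, open circles are CON calf 19 and VTM calf 10, black lines are means of the 6 filled points per group and black bars the SD; BMP7 in CON calf 19 (4.40 CPM) sits above all VTM calves, and TGFB3 in VTM calf 40 is at 0.

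The ligands thus differed in opposite directions in the 12 calves, with BMP7 higher and BMP4 and TGFB3 lower in VTM, and each direction was kept in all 12 fits that left out 1 calf. BMP4 ranged in them from -0.66 (without CON calf 13) to -0.38 (without CON calf 25), and TGFB3 from -1.45 (without VTM calf 28) to -0.91 (without VTM calf 40). The median log2 fold change of all tested genes was -0.02, so the scaling of the libraries placed the bulk of genes near no difference. By the threshold of the study, an unadjusted p of at most 0.05 with a log2 fold change at or beyond 0.5 in either direction, 3.71% of the 13307 tested genes were called with edgeR, 0.864% higher and 2.85% lower in VTM. No gene had a Benjamini-Hochberg adjusted p of at most 0.05 with edgeR (690 had an unadjusted p of at most 0.05) or with DESeq2 (880). Nothing is read from the place of the 3 ligands in these shares, since this contrast chose them. None of the 3 separated the 12 calves completely, which 0.210% of tested genes did in either direction.

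**Figure D2:**
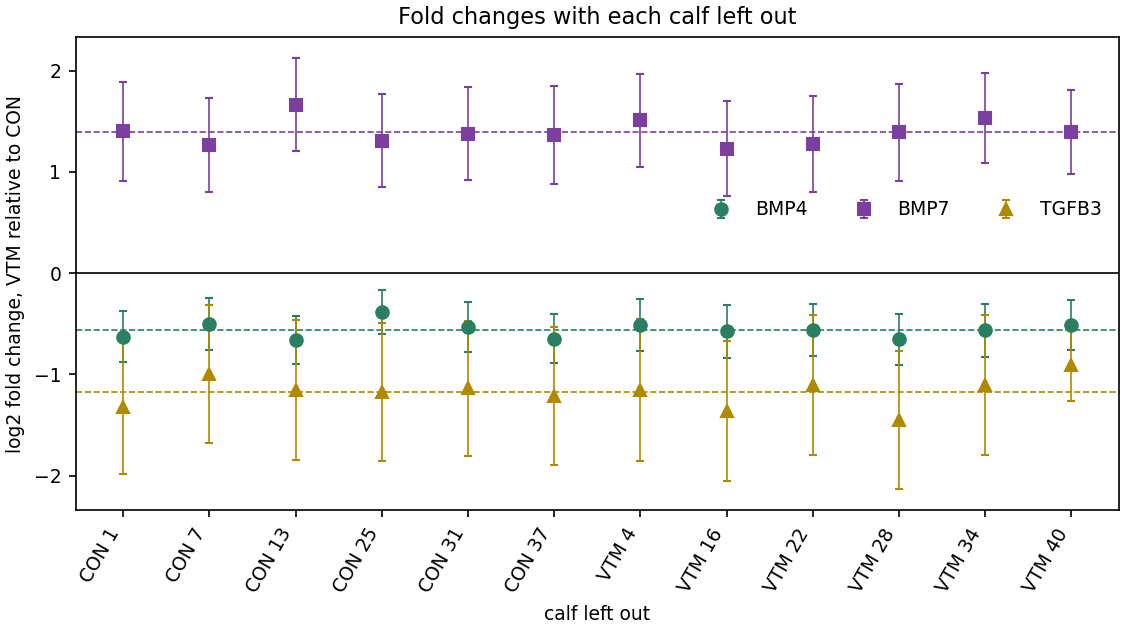
Log2 fold change of BMP4 (circles), BMP7 (squares) and TGFB3 (triangles), VTM relative to CON, when the calf on the horizontal axis was left out of the edgeR fit. Bars are standard errors and dashed lines the values with 12 calves; BMP7 stays between 1.23 and 1.67, and the bar of TGFB3 is shortest without VTM calf 40.

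The spread between calves of a group was larger than counting error for each ligand. The counting error expected at the mean count of both groups together was 7.55% for BMP4, 18.3% for BMP7 and 13.4% for TGFB3. For BMP7 the mean count was 15 in CON and 44.8 in VTM, so counting error was larger than this value in CON. The biological coefficient of variation that edgeR estimated was 30.4% for BMP4, 47.6% for BMP7 and 70.3% for TGFB3. For BMP4 and BMP7 it was below the trend at their abundance, 37.3% and 67.5%, and for TGFB3 it was above the trend of 57.8%. Without VTM calf 40 the estimate for TGFB3 was 39.9%, while those of BMP4 and BMP7 were 29.7% and 45.1%.

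The number of BMP7 reads per BMP4 read compares both ligands within a library and does not depend on depth or scaling. Since the lengths of the transcripts were not used, it has meaning between calves but not as a ratio of molecules. It was 0.0980 in CON calf 1, 0.0346 in calf 7, 0.216 in calf 13, 0.0321 in calf 25, 0.0663 in calf 31 and 0.0971 in calf 37. In the VTM group it was 0.206 in calf 4, 0.434 in calf 16, 0.4 in calf 22, 0.225 in calf 28, 0.142 in calf 34 and 0.351 in calf 40. VTM calves 16, 22, 28 and 40 were above every CON calf, and 5 CON calves, all but calf 13, were below every VTM calf. Calves with counts this low carry wide intervals: the exact Clopper-Pearson 95% interval was 0.0137 to 0.0643 in CON calf 25 and 0.318 to 0.588 in VTM calf 16, and both cover counting error only.

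The geometric mean of the ratio was 0.0730 in CON and 0.272 in VTM, a difference of 1.89 on the log2 scale or 3.72-fold. The SD of the log2 ratio between calves was 1.04 in CON and 0.64 in VTM (n = 6 per group). From the summed counts of each group, the ratio was 0.0772 in CON (90 BMP7 and 1166 BMP4 reads) and 0.287 in VTM (269 and 937). Leaving out each calf in turn gave log2 differences of 1.66 to 2.21. The ratio was 0.384 in CON calf 19 and 0.358 in VTM calf 10, so that these 2 calves, from opposite groups, had overlapping intervals of 0.286 to 0.511 and 0.242 to 0.520. With them the difference was 1.61 on the log2 scale or 3.05-fold, and 2 VTM calves, 16 and 22, were above every CON calf.

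**Figure D3:**
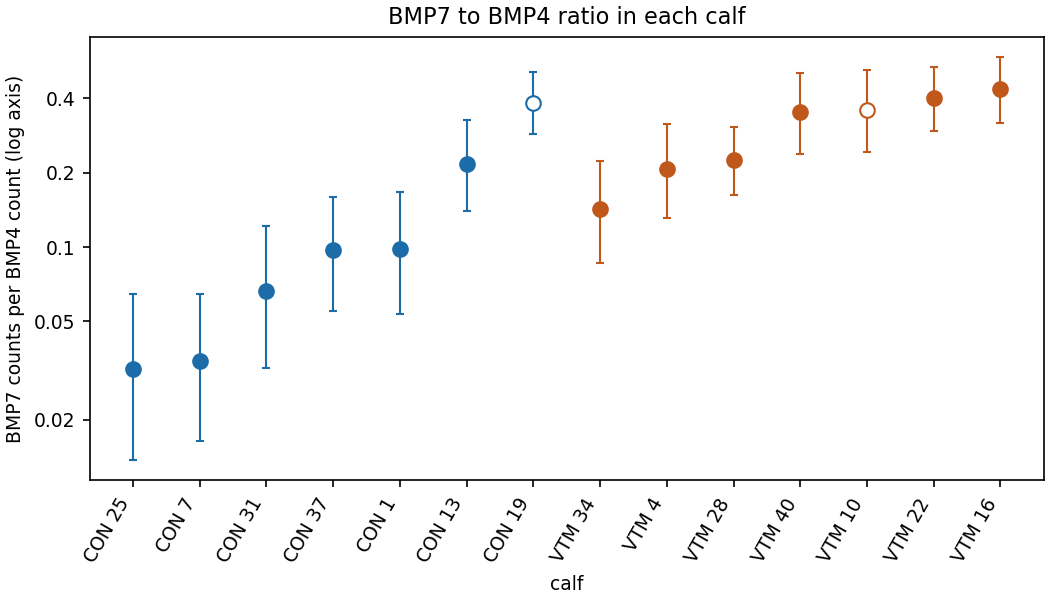
BMP7 counts per BMP4 count in each of the 14 calves (log axis), CON in blue and VTM in orange, ordered within each group by the ratio. Bars are exact Clopper-Pearson 95% intervals and open circles are the 2 calves the study left out; 5 of the filled CON points lie below all VTM points, while CON calf 19 at 0.384 lies among the highest VTM calves.

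Whether the ligands varied together within a diet group was tested, since removing the group means leaves out the difference that chose them. The log2 CPM of BMP4 and BMP7 had a Pearson r of -0.32 and a Spearman rho of -0.12 over 12 calves (2-sided exact permutation test within groups, p = 0.312, adjusted over 3 pairs 0.469; for rho, p = 0.717, adjusted 0.897). Without CON calves 13 and 25, the calves farthest from the median of BMP4, r was 0.02. In the CON group r was -0.75 and in the VTM group 0.33, a difference that was not tested. The 2 ligands that were both lower in VTM, BMP4 and TGFB3, had r = 0.37 and rho = 0.45 (exact permutation test, p = 0.0951, adjusted 0.285; for rho, p = 0.0921, adjusted 0.276), and r was 0.56 without CON calves 13 and 25. BMP7 and TGFB3 had r = -0.02 and rho = 0.05 (exact permutation test, p = 0.967, adjusted 0.967; for rho, p = 0.897, adjusted 0.897), and r = -0.02 without the calves farthest from the median of BMP7, CON calf 13 and VTM calf 34. No pair passed an adjusted p of 0.05, and none of these values shows that the ligands varied independently.

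Other genes of the pathway were taken from lists of 113 ligands, receptors, SMADs, inhibitors, latent binding proteins and targets, of which 12 could be paired with an identifier. All 12 pairs came from gene lists that the study had picked on these calves, among them its list of genes past its threshold with DESeq2. Their direction, the size of their fold changes and the number past the threshold are therefore not independent evidence. The other listed genes were not analysed here. Of the 12, 11 were past the threshold of the study and lower in VTM, none was higher, and LTBP4 missed the threshold at -0.65 ± 0.31. Their median log2 fold change was -0.81, and the adjusted p was 0.791 for each (edgeR). The median over all tested genes was -0.02, but the gap is not read as a shift of the pathway, since the lists were picked on this contrast. With DESeq2, the method behind the study's own list, all 12 were past it, and nothing is read from this number. Over all tested genes 4.73% were past it with DESeq2, 3.53% being lower in VTM. Over all 14 calves 8 of the 12 were past it, against 2.07% of all tested genes (0.443% higher and 1.62% lower), and 7 were without CON calf 7, without VTM calf 4, or without both CON calf 31 and VTM calf 40.

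Among ligands, the one other gene that could be named was GDF10, a BMP-related ligand. It was at 5.01 ± 1.76 CPM in CON and 2.23 ± 0.577 CPM in VTM (SD, n = 6 per group), a log2 fold change of -1.17 ± 0.32, and 5 CON calves were above every VTM calf. It was thus on the side of BMP4 and TGFB3 rather than BMP7. Of the 20 receptors and co-receptors listed, ACVRL1 and ENG could be named. ACVRL1, a type I receptor of endothelial cells for circulating BMPs, was at 18.98 ± 3.87 CPM in CON and 12.7 ± 2.38 CPM in VTM. ENG, the co-receptor endoglin, was at 287 ± 74.8 CPM in CON and 182 ± 20.1 CPM in VTM. Their log2 fold changes were -0.58 ± 0.18 and -0.66 ± 0.17, and in both 5 CON calves were above every VTM calf. GDF10, ACVRL1 and ENG met the threshold whichever of the 12 calves was left out. With all 14 calves they met it at log2 fold changes of -1.09, -0.53 and -0.51. ENG was at 164 CPM in CON calf 19, below all other CON calves, and at 233 CPM in VTM calf 10, above all other VTM calves.

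LTBP2 and LTBP4 belong to the family of latent TGF-beta binding proteins, some members of which hold latent TGF-beta in the matrix. Binding by either was not measured here. LTBP2 was at 4.94 ± 2.26 CPM in CON and 2.67 ± 1.03 CPM in VTM, a log2 fold change of -0.89 ± 0.37 that met the threshold whichever calf was left out, other than CON calf 13, 25 or 37 or VTM calf 4 or 34. LTBP4 was at 19.9 ± 8.10 CPM in CON and 12.7 ± 4.76 CPM in VTM, and among the edgeR fits with a calf left out it met the threshold without CON calf 1, CON calf 37 or VTM calf 28.

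Of the BMP targets, HAMP could be named, the gene of hepcidin. It ranged from 48.8 through a median of 221 to 507 CPM in CON and from 50.1 through 114 to 174 CPM in VTM. The lowest calves of both groups were close, and 3 CON calves were above every VTM calf. Its log2 fold change of -1.09 ± 0.50 met the threshold in 4 of the 12 leave-one-out fits, those without CON calf 7, 13 or 37 or VTM calf 34.

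Among the TGF-beta targets, 6 could be named, and all were lower in VTM and past the threshold. COL1A1 and COL1A2, the chains of type I collagen, had log2 fold changes of -1.12 ± 0.35 and -0.99 ± 0.35 and met the threshold whichever calf was left out. COL3A1, the chain of type III collagen, had -0.61 ± 0.28 and, of the leave-one-out fits, kept the call in those without CON calf 1, 25 or 31 or VTM calf 28. CCN2, a matricellular growth factor, had -1.41 ± 0.64. It was at 23.6 CPM in CON calf 7 and at 0 in VTM calf 40, and it kept the call in the fits without CON calf 1, 25 or 31 or VTM calf 40. TGFB1I1, a focal adhesion adaptor, and TAGLN, an actin-binding protein of smooth muscle, had -0.60 ± 0.22 and -0.73 ± 0.28, and each lost the call without CON calf 7 and with all 14 calves. LTBP4 and COL3A1 were also not past the threshold with all 14 calves.

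**Figure D4:**
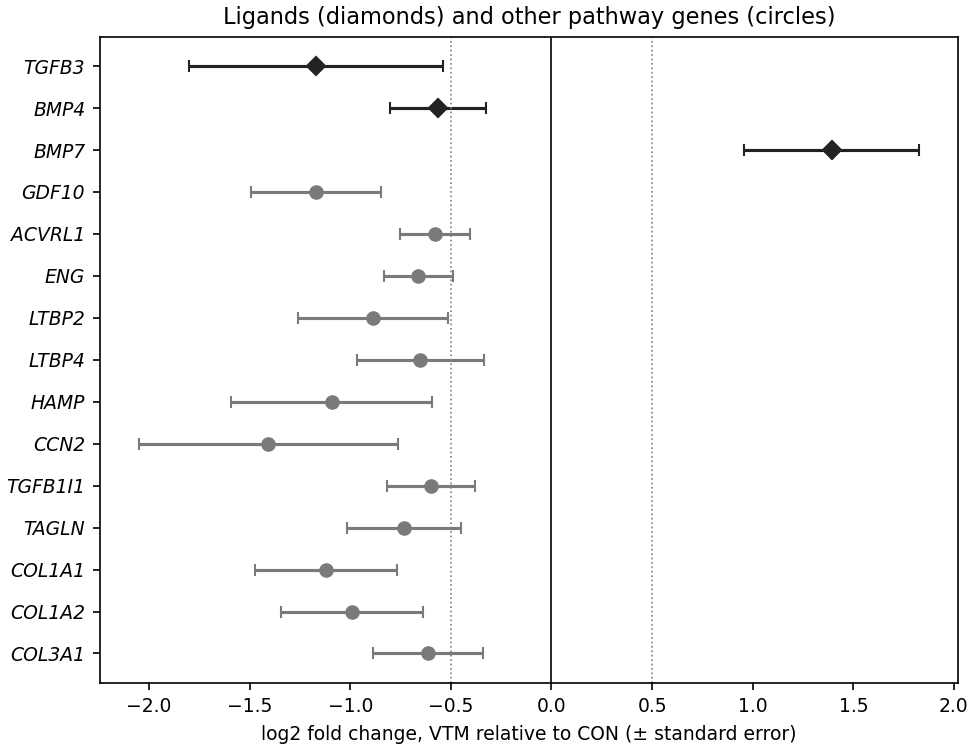
Log2 fold change with its standard error, VTM relative to CON over 12 calves (edgeR), for the 3 ligands (diamonds) and the 12 other pathway genes that could be named (circles). Dotted lines mark an absolute log2 fold change of 0.5; BMP7 at 1.39 is the single gene to the right of 0, and the study had picked the genes shown on these calves.

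Within groups, the r of each ligand with members of these lists is given as a description over 12 calves that share libraries and depth. LTBP4 was among the highest for both BMP4 and TGFB3, and differences between the ligands were not tested. BMP4 had its highest r with TAGLN (0.75), ENG (0.69) and LTBP4 (0.69), and its r with COL1A1 was 0.08. BMP7 had its highest r with LTBP2 (0.39) and its lowest with ENG (-0.47). TGFB3 had its highest r with CCN2 (0.93), which was also at 0 in VTM calf 40, and LTBP4 (0.75). Without that calf these were 0.52 and 0.81, and the r of TGFB3 with TGFB1I1 went from -0.09 to 0.84. With HAMP, r was 0.34 for BMP4 and -0.07 for BMP7.

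Levels of cell type markers are set beside the comparison, for the few that could be named. These names came from lists that the study had picked on these calves, so their calls are not independent evidence, and over all tested genes 2.85% were past the threshold and lower and 0.864% past it and higher. The 6 of 14 stellate cell and fibroblast markers summed to 529 to 1072 CPM in CON and 451 to 716 CPM in VTM, and 4 of them were past the threshold and lower in VTM and 1 past it and higher. The 3 of 12 endothelial markers summed to 149 to 460 CPM in CON and 112 to 157 CPM in VTM, with all 3 past the threshold and lower. The 4 of 9 cholangiocyte markers summed to 49.3 to 108 CPM in CON and 32.0 to 76.6 CPM in VTM, with 2 past the threshold and lower, and SOX9, one of its defining markers, was at 0 in VTM calf 40. The only macrophage marker of 10, TIMD4, was at 6.21 to 29.2 CPM in CON and 5.94 to 11.2 CPM in VTM and was not past the threshold. The 2 of 12 hepatocyte markers summed to 5804 to 12353 CPM in CON and 7078 to 16262 CPM in VTM. They went opposite ways: AHSG was past the threshold and higher in VTM, while TTR was lower and not past it. No mesothelial or erythroid marker could be named. The part of these cell types in the levels of the ligands was not tested.

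By likeness of pattern, measured as r of log2 CPM within groups over 12 calves among genes that could be named and had at least 1 CPM on average, the 5 genes nearest to BMP4 were TPM2 (0.82), ZNF354A (0.82), GLIS2 (0.81), CIZ1 (0.80) and CSRP1 (0.80). Among all tested genes, most of which could not be named, they ranked from 16 (TPM2) to 42 (CSRP1). Over 14 calves they had r of 0.67 to 0.79. Without VTM calf 40 the r of these 5 genes were 0.80 to 0.82, and CLCF1 (0.88), GLS2 (0.83) and ABHD11 (0.82) took the places of ZNF354A, CIZ1 and CSRP1 among the nearest. The 5 nearest to BMP7 were TDO2 (0.72), GRB14 (0.71), ABCG5 (0.65), RMDN2 (0.63) and ST6GAL1 (0.55). Among all tested genes these ranked 15, 19, 48, 61 and 157, so many genes without a name lay closer. Over 14 calves TDO2 and RMDN2 had r of -0.15 and -0.12 with BMP7, whereas the other 3 had 0.56 to 0.64. Without VTM calf 40 the r of the 5 genes were 0.59 to 0.74, and VSTM5 (0.72) and DCXR (0.69) took the places of ABCG5 and ST6GAL1. Here and for TGFB3, names came from lists that the study had picked on these calves, so the named neighbours are not an open search.

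Of the genes that could be named, the 5 nearest to TGFB3 were ZBTB47 (0.98), FLI1 (0.96), C1QTNF7 (0.96), P3H4 (0.95) and HDAC7 (0.95). These were higher values than those of the genes nearest to the other ligands. Among all tested genes they ranked from 2 (ZBTB47) to 42 (HDAC7). All 5 had fewer CPM in VTM calf 40 than in any other VTM calf, for example 1.93 in ZBTB47 where the next lowest VTM calf had 9.46, and 0 in C1QTNF7. Without VTM calf 40 the r of these genes with TGFB3 were 0.84, 0.70, 0.77, 0.71 and 0.60, and the 5 nearest genes were FYN (0.86), CA3 (0.85), ZBTB47 (0.84), TGFB1I1 (0.84) and DPT (0.83).

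The number of genes at an absolute r of at least 0.9 with TGFB3 in a group also turned on that library. It was 119 in the 6 CON calves and 2237, or 16.8% of tested genes, in the 6 VTM calves. The median of all tested genes was 450 in CON and 351 in VTM. The 95th percentile of all tested genes was 2704 in CON and 2492 in VTM, so a number like that of TGFB3 in VTM was not particular to it. Without VTM calf 40 the number for TGFB3 was 434 and the median of all genes 551, and without any other VTM calf it was up to 3142. With any 1 CON calf left out it was 181 to 401. BMP4 had 229 such genes in CON (268 to 1418 with any 1 CON calf left out) and 81 in VTM (191 to 1033 with any 1 VTM calf left out). BMP7 had 36 in CON (103 to 220) and 176 in VTM (260 to 735). An absolute r of 0.9 is reached more easily with 5 calves than with 6. A rise in these numbers with 1 calf left out is therefore not read as an effect of that calf.

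**Figure D5:**
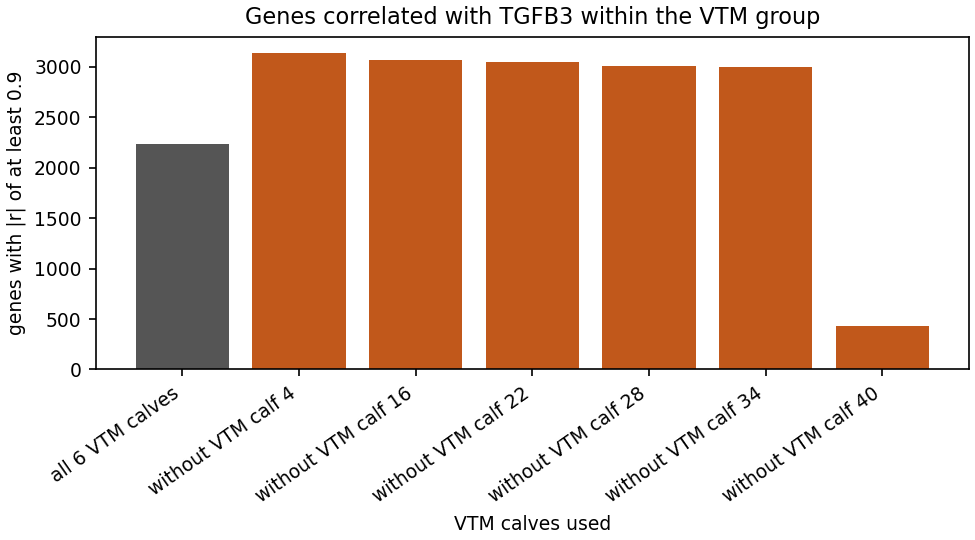
Number of tested genes with an absolute Pearson r of at least 0.9 with TGFB3 (vertical axis, log2 CPM) within the VTM group, over all 6 calves (grey, 2237 genes) and with each VTM calf left out (orange). The bar without VTM calf 40 is at 434 genes and those without another calf are above the grey bar. An absolute r of 0.9 is reached more easily with 5 calves than with 6.

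In RefSeq annotation of a later assembly (ARS-UCD2.0), TGFB3 overlaps IFT43, a gene of the intraflagellar transport machinery, BMP7 overlaps the microRNA gene MIR2307, and no gene overlaps BMP4. The libraries kept strand, but the strand column that was counted is not given in the sources used here, so the counts of TGFB3 and IFT43 on any stretch they share are uncertain. IFT43 was at 5.22 ± 2.03 CPM in CON and 2.81 ± 0.838 CPM in VTM (SD, n = 6 per group), a log2 fold change of -0.90 ± 0.34. Its lowest count in 12 calves was 31, and it had 43 counts in VTM calf 40, where TGFB3 had 0. Its r with TGFB3 within groups was 0.21 over 12 calves and 0.47 without VTM calf 40. IFT43 was named through lists that the study had picked on these calves, so its fold change is not independent evidence.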

How the data were processed

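RNA was taken from liver of 14 calves, and strand-specific libraries were sequenced. The authors counted reads on Ensembl genes with STAR 2.7.5 after alignment to the ARS-UCD1.2 assembly, and the deposited values are unnormalized counts. Groups came from sample titles, and each calf was 1 replicate. Total counts were 13382264 to 20125409 per calf.

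Counts were fitted in R 4.3.3 with edgeR 4.0.16, using filterByExpr, TMM and its quasi-likelihood test with group as the only term, on 12 calves, and p-values were adjusted over all 13307 tested genes. DESeq2 1.42.0, RLE size factors, no filter, 14 calves, 10 calves and each calf left out were alternatives, and 10 calves and the counts without VTM calf 40 were chosen after seeing the data. Standard errors of edgeR fold changes were derived from its quasi-likelihood test, as the absolute log2 fold change over the square root of F. CPM were scaled by TMM over 14 libraries, and log2 CPM for correlations used a prior count of 2. P-values from edgeR set the group difference against the spread between these calves. Those of the correlations come from permutations of calves within groups. Intervals are at 95% and cover counting error. The fits were tested on simulated data.

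The ligands and gene lists were chosen with earlier results of these data known. Symbols came from 629 pairs in the supplementary gene lists of the study. Named were the 3 ligands, in each pathway list up to 4 genes past the threshold per direction by smallest p and the 2 with most CPM, and the 5 genes nearest to each ligand.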

Additional observations from a re-analysis of the deposited data

Results flagged for a closer look

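In 64 groups of 6 or 7 calves, the highest or lowest calf was far from the others, by Dixon's criterion at 95%, in 9 cases. Chance gives about 1 in 20 for independent groups. Here the groups of 7 contain those of 6 and share libraries, so the 9 cases are not set against that rate. BMP7 in CON calf 13 (1.71 CPM) stood above the other 5 CON calves, as did its BMP7 to BMP4 ratio (0.216). With all 14 calves, BMP7 in CON calf 19 (4.40 CPM) stood above the other 6 CON calves, BMP4 in VTM calf 28 (11.1 CPM) above the other 6 VTM calves, and TAGLN in VTM calf 28 (77.4 CPM) likewise. CCN2 stood apart in CON calf 7 (23.6 CPM, high) and in VTM calf 40 (0, low), with 12 calves and with 14.

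The 2 libraries outside the comparison of 12 calves also held BMP7 reads above the median of the 6 CON calves, 4.40 CPM in CON calf 19 and 2.91 CPM in VTM calf 10. With 1 calf of each group, their difference was not tested.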

How the results depend on the processing

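The directions of BMP4, BMP7 and TGFB3 and of the BMP7 to BMP4 ratio held under every alternative run, with log2 fold changes without 1 calf of -0.66 to -0.38, 1.23 to 1.67 and -1.45 to -0.91, and a log2 ratio difference of 1.66 to 2.21. The pathway genes past the threshold and lower in VTM were 11, and 7 with 10 calves and 7 to 11 without 1 calf; none was higher. Over all genes, 379 were past the threshold and lower and 115 past it and higher, against 700 and 303 with no filter on low counts, 216 and 59 with 14 calves, and 202 to 688 and 76 to 351 without 1 calf. The count of genes past it and lower moved by over 1.5 times without CON calf 25 (229), 31 (202) or 37 (688), and that of genes past it and higher without CON calf 1 (199), 25 (76) or 37 (351). The cause was not tested. The correlation of BMP7 and TGFB3 (-0.02) ranged from -0.17 to 0.10 and turned positive without CON calf 1 (0.00015), CON calf 7 (0.057), VTM calf 4 (0.033), VTM calf 34 (0.012) or VTM calf 40 (0.096). No paired analysis was possible because the groups share no replicate numbers. Depth limits BMP7, at 8 to 68 counts per calf, and TGFB3, at 0 to 136.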

Other observations

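TGFB3 and BMP4, both lower in VTM, were also compared within libraries. The TGFB3 counts per BMP4 count were 0.383 ± 0.148 in CON and 0.225 ± 0.135 in VTM (SD, n = 6 per group), and ranged from 0.209 to 0.590 in CON and from 0 to 0.372 in VTM, so that the groups overlapped. With all 14 calves they were 0.347 ± 0.164 and 0.237 ± 0.128 (SD, n = 7 per group).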
